A study of Mus musculus with 30 samples.

Results

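The 9 genes of the Hedgehog pathway described here were followed across satellite cells before and after muscle injury. They were Ptch1, Boc, Cdon, Hhip, Smo, Sufu, Gli1, Gli2 and Gli3, taken by symbol from the annotation of the array, and all 9 were found among the 19938 genes tested. Each had 1 probe set in that annotation that named no other gene. Total RNA of FACS-sorted mouse hindlimb cells was measured on 30 Affymetrix Mouse Gene 1.0 ST arrays, with 3 arrays in each of 10 groups. Wild-type C57BL6 mice gave the VCAM+ cells, which were sorted as negative for CD31, CD45 and Sca1. In old wild-type mice of 22 to 24 months they were taken 60 h after BaCl2 injury (ASCs, activated satellite cells) and without injury (QSCs, quiescent satellite cells). In young wild-type mice of 2 to 3 months they were taken as QSCs and as ASCs at 36, 60 and 84 h. The YFP cells came from young Pax7CreER/+;ROSA26eYFP/+ mice of the same age, QSCs included, all injected with Tamoxifen, and were sorted on YFP at the same 4 stages. In that strain YFP marks the cells in which Pax7-driven Cre was active and their descendants, so sort, genotype and Tamoxifen change together between VCAM and YFP cells and cannot be told apart. Nothing in the labels tells if replicate arrays came from separate mice, so the p-values below measure the spread between arrays, which may be technical.

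Hedgehog ligands bind Ptch1, a membrane protein that keeps the transmembrane protein Smo inactive when no ligand is there. Boc, Cdon and Gas1 are cell surface co-receptors that help Ptch1 take up the ligand, while Hhip binds the ligand and withholds it. Once Smo is released it accumulates in the primary cilium, and the zinc finger factors Gli2 and Gli3, which Sufu holds in the cytoplasm, are spared from processing into repressors. Gli2 is known mainly as the activator of the pathway and Gli3 mainly as its repressor, while Gli1, Ptch1 and Hhip are themselves genes that the pathway switches on. In muscle, Cdon and Boc are also known as cell adhesion receptors that bind cadherins and promote myogenic differentiation.

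All values are log2 intensities after RMA (robust multi-array average), and every fold change is within a gene, since levels of different probes cannot be set against each other. The median gene value was 7.3 and the 25th percentile 5.96 over all arrays. A gene was called when limma's moderated test gave an adjusted p under 0.05 over all genes and the fold was at least 1.5; "rose" and "fell" are used below only of called genes. The satellite cell identity of the sorted cells was checked with 11 markers. Vcam1 lay between 12.17 and 12.88 in the group means, Myod1 between 11.67 and 12.70 and Pax7 between 8.95 and 11.68. Calcr, Chodl, Fgfr4, Myf5 and Pax7 fell in all 7 comparisons of injured cells with QSCs. Their largest changes were -5.13, -5.38, -2.28, -2.01 and -2.72, in that order. Sdc4 fell in 6 of the 7, Myod1 in 3, Des in 2 and Vcam1 in 1. Itga7 rose in 5, and Cdh15 rose in 1 and fell in 1. Markers of other cells were also measured, among them Ptprc, which encodes the CD45 that the VCAM sort removed. Its mean was 6.24 in QSCs of both young sorts and 6.34 in old QSCs, and it lay between 7.49 and 9.49 in the 7 groups of injured cells. The mean of 11 macrophage markers lay between 6.53 and 6.84 over the 9 QSC arrays and between 7.91 and 9.89 over the 21 arrays of injured cells, with all 11 called as risen in 6 of the 7 comparisons of injured cells with QSCs and 10 of 11 at 60 h in young VCAM cells. Satellite cell markers fell in 6 to 8 of 11 cases over the 7 comparisons. Of 9 pericyte and smooth muscle markers, 9 fell at 60 h in young VCAM cells, 7 in YFP cells and 5 in old VCAM cells, and of 10 endothelial markers 9, 10 and 8 fell. At 36 h the pattern was another, with 1 of 10 endothelial markers risen and 3 fallen in young VCAM cells, against 8 and 1 in YFP cells. Of the pericyte and smooth muscle markers, 0 rose and 5 fell in young VCAM cells, against 2 and 1 in YFP cells, and 6 of 7 tenocyte markers rose in both sorts. The part of such cells in the changes described here was not tested, and in sorted bulk RNA fewer cells of a type and less RNA per cell cannot be told apart.

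**Figure D1:**
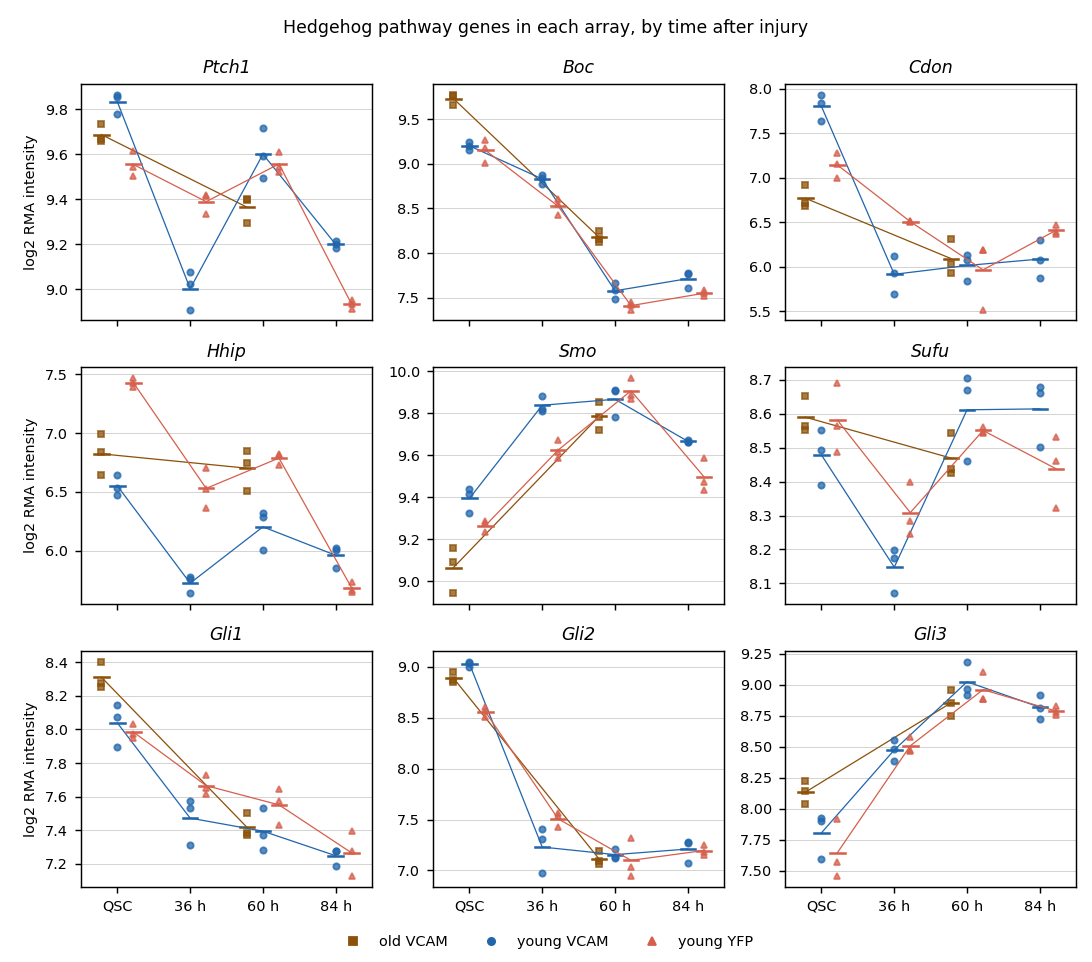
Log2 RMA intensity (y axis) of the 9 genes in each of the 30 arrays, by time after injury (x axis). Points are arrays, short bars are group means and thin lines join the means of old VCAM (squares), young VCAM (circles) and young YFP cells (triangles); Gli2, Boc and Cdon are highest in the QSC groups and Gli3 is lowest there.

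Gli2, Cdon and Gli3 were called in the same direction in all 7 comparisons of injured cells with QSCs, Cdon by its annotated probe set. A second Cdon probe set, described below, was not called at 36 h in YFP cells (-0.06). The promoters that RefSeq gives for these genes (build GRCm38.p6) are printed here because Gli2 and Cdon moved against Gli3. Each window runs from 250 bases before to 50 bases after 1 annotated start. For Gli2 and Cdon that start lies inside the annotated span of the gene, rather than at its 5′ end. Capitals mark matches to any of 5 motifs, searched on both strands.
Gli2 (chr1:119053570-119053869, minus strand): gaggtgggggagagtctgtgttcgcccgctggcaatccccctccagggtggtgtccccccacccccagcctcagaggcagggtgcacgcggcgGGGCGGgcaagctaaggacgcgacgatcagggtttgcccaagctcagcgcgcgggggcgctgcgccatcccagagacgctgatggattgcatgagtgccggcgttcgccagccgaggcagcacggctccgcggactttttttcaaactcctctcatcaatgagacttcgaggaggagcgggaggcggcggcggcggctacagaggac
Gli3 (chr13:15463473-15463772, plus strand): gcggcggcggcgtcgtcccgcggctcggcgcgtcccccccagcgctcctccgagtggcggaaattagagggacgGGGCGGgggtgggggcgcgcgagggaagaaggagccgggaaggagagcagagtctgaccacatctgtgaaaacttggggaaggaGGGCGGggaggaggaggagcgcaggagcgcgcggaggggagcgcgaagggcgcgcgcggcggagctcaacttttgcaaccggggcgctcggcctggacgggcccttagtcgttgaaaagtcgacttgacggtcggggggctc
Cdon (chr9:35451826-35452125, plus strand): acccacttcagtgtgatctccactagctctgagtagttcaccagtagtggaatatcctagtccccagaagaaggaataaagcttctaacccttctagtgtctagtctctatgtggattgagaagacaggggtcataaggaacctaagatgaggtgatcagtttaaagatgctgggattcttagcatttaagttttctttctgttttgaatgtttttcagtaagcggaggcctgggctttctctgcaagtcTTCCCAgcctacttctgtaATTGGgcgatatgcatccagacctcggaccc
The 2 Gli windows held GGGCGG, the GC box, which stood in 35.7% of all 32851 promoter windows of this length. The Cdon window held TGGGAA, the core bound by the Notch effector RBPJ, and CCAAT, the NF-Y box, both on the strand opposite to the one printed, which stood in 25.6% and 37.4% of all windows. The GLI site GACCACCCA stood in none of the 7 windows that RefSeq gave for the 9 genes (Gli1 and Boc had no entry) and in 0.253% of all windows. CAGCTG, an E-box bound by myogenic factors, was also in none of the 7, against 16.3% of all. No base belonged to a match of more than 1 motif. The GC share was 67.3% for Gli2, 71% for Gli3 and 44.7% for Cdon, against a median of 52.7% over all windows.

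The first question was how the pathway's genes change when satellite cells leave quiescence. In young VCAM cells, 5 of the 9 genes were called at 36 h, 5 at 60 h and 7 at 84 h, where 23%, 29.2% and 27.6% of all genes tested were called. In young YFP cells the counts were 5, 6 and 7, against 16.3%, 30% and 28.2% of all genes. In old VCAM cells at 60 h, 6 of the 9 were called, against 29.5% of all genes. The comparisons at 36, 60 and 84 h share the same QSC arrays within a sort. The median log2 change of the 9 genes lay between -0.72 and -0.32 over the 7 comparisons, while the median over all genes lay between -0.106 and -0.0139. Changes fell into 3 kinds. Gli2, Cdon, Boc, Gli1, Ptch1 and Hhip were called only as fallen in these 7 comparisons, Gli3 and Smo only as risen, and Sufu was not called in any.

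**Figure D2:**
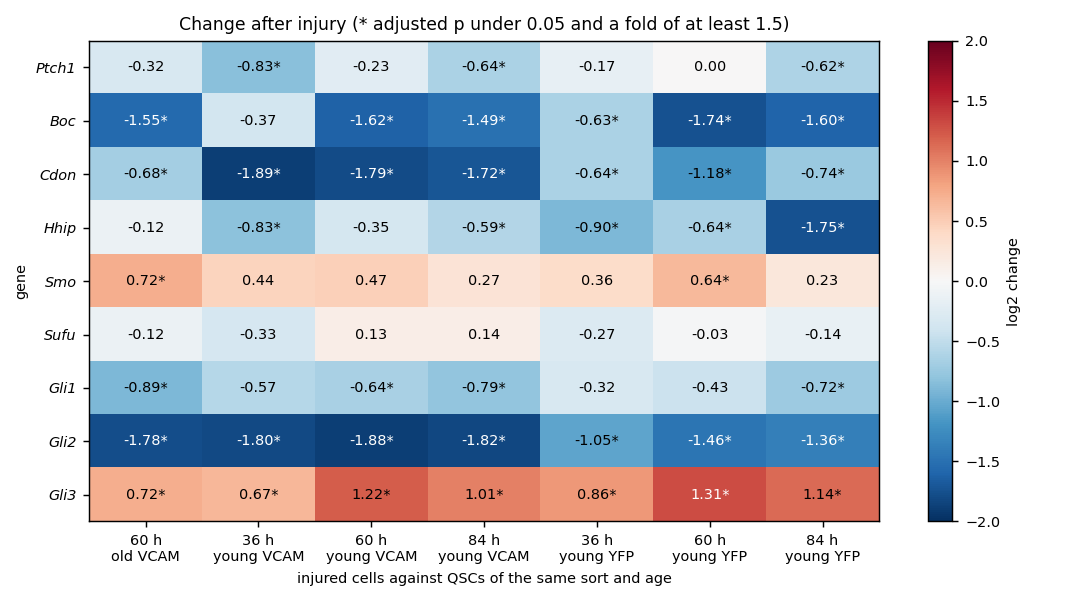
Log2 change (colour and number) of each of the 9 genes (rows) in injured cells against QSCs of the same sort and age (columns); a star marks an adjusted p under 0.05 with a fold of at least 1.5. Gli2, Cdon and Gli3 carry a star in all 7 columns and Sufu in none. Cdon is shown by its annotated probe set, and its second probe set was not called at 36 h in YFP cells.

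Gli2, the main activator of the pathway, fell by 36 h and was low at every later time. Its arrays read 9.0, 9.04 and 9.05 in young VCAM QSCs, then 7.31, 7.4 and 6.97 at 36 h, 7.13, 7.21 and 7.13 at 60 h, and 7.08, 7.28 and 7.27 at 84 h. Every QSC array was thus above every array of injured cells by more than the range within any group. The log2 change from QSCs was -1.80 ± 0.087 at 36 h (SE of the fit; adjusted p = 6.4e-16), -1.88 at 60 h and -1.82 at 84 h, or 3.49-, 3.67- and 3.54-fold lower. Between 36 and 60 h the arrays overlapped and the change was -0.07 (95% interval -0.25 to 0.10). In YFP cells the arrays were 8.57, 8.60 and 8.51 in QSCs, 7.56, 7.43 and 7.53 at 36 h, 6.94, 7.32 and 7.03 at 60 h, and 7.16, 7.18 and 7.25 at 84 h. The fall there was 2.07-fold at 36 h, 2.75-fold at 60 h and 2.57-fold at 84 h. Old VCAM cells gave 7.19, 7.06 and 7.10 at 60 h, against 8.87, 8.95 and 8.85 in old QSCs, which is 3.43-fold lower (adjusted p = 5.66e-16). Over the 10 groups the 3 QSC means held the top ranks without overlap, and the lowest 6 groups, from 7.23 down to 7.10, each overlapped with the next of the 6 in rank, while the group above them, 36 h YFP cells, did not overlap with them.

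Gli3, the main repressor, rose, and in the young cells its highest means were at 60 h. In young VCAM cells its arrays were 7.90, 7.59 and 7.92 in QSCs, 8.48, 8.39 and 8.55 at 36 h, 8.97, 8.92 and 9.19 at 60 h, and 8.92, 8.81 and 8.72 at 84 h. No array of injured cells fell within the range of the QSCs. The rise was 1.59-fold at 36 h (log2 change 0.67 ± 0.1; adjusted p = 2.12e-06), 2.32-fold at 60 h and 2.02-fold at 84 h. Without QSC VCAM replicate 2, the lowest of the QSC arrays, the 36 h change was 0.56 and missed the fold threshold. The step between 36 and 60 h, 0.55, missed that threshold too, and passed it at 0.59 without 36 h VCAM replicate 3 and at 0.60 without 60 h VCAM replicate 2. YFP cells had 7.46, 7.57 and 7.92 in QSCs, 8.58, 8.48 and 8.46 at 36 h, 8.89, 8.89 and 9.10 at 60 h, and 8.83, 8.76 and 8.78 at 84 h, again with no overlap between QSCs and any later stage. The rise in YFP cells was 1.81-, 2.48- and 2.20-fold at the 3 times. In old VCAM cells Gli3 read 8.85, 8.75 and 8.96 at 60 h, against 8.04, 8.22 and 8.14 in old QSCs, a rise of 1.65-fold (adjusted p = 5.42e-07), which was 0.48 on the log2 scale and no longer called after quantile normalization.

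Gli1, which is both a Gli factor and a readout of pathway activity, was lower than in QSCs at every time after injury. Young VCAM arrays were 8.15, 7.90 and 8.07 in QSCs, 7.57, 7.53 and 7.31 at 36 h, 7.53, 7.37 and 7.28 at 60 h, and 7.28, 7.19 and 7.28 at 84 h. All QSC arrays lay above all later arrays, while neighbouring times after injury overlapped at 36 and 60 h. The change was -0.57 at 36 h (adjusted p = 7.94e-07), just short of the 1.5-fold threshold, and Gli1 fell by 0.64 at 60 h and by 0.79 at 84 h. The later steps, -0.08 from 36 to 60 h and -0.15 from 60 to 84 h, were not called. The 36 h value passed the threshold without QSC VCAM replicate 2 (-0.64), without 36 h VCAM replicate 1 (-0.62) or without 36 h VCAM replicate 2 (-0.60), after median centring (-0.59) and after quantile normalization (-0.67), and the 60 h value missed it after median centring (-0.56). YFP arrays were 7.97, 8.03 and 7.95 in QSCs, 7.65, 7.73 and 7.62 at 36 h, 7.43, 7.58 and 7.64 at 60 h, and 7.39, 7.13 and 7.28 at 84 h. The changes in YFP cells were -0.32, -0.43 and -0.72, and only the last was called (adjusted p = 1.08e-08). The later steps in YFP cells were -0.11 and -0.29 and were not called. Old VCAM cells had 7.37, 7.38 and 7.50 at 60 h, against 8.28, 8.25 and 8.4 in old QSCs, so that Gli1 fell 1.86-fold, and old QSCs held its highest group mean, 8.31.

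**Figure D3:**
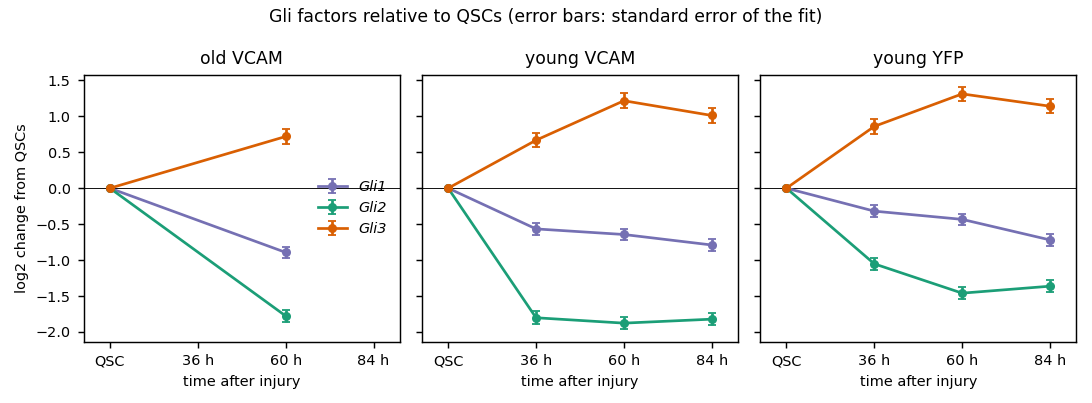
Log2 change from QSCs (y axis) of Gli1, Gli2 and Gli3 by time after injury (x axis) in old VCAM, young VCAM and young YFP cells; error bars are the standard error of the fit, and QSCs are at 0 by construction. Gli3 lies above 0 and Gli1 and Gli2 below it at every time measured.

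Ptch1, the receptor and a target of the pathway, was lower than in QSCs at 36 and 84 h in young VCAM cells and at 84 h in YFP cells, and was not called at 60 h in any cells. In young VCAM cells its arrays were 9.78, 9.86 and 9.86 in QSCs, 8.91, 9.02 and 9.07 at 36 h, 9.50, 9.59 and 9.72 at 60 h, and 9.21, 9.18 and 9.20 at 84 h. None of these 4 sets overlapped. Ptch1 was 1.78-fold lower at 36 h (log2 change -0.83 ± 0.054; adjusted p = 2.73e-13) and 1.55-fold lower at 84 h than in QSCs, while at 60 h the change was -0.23 and was not called. Between 36 and 60 h it rose 1.51-fold (0.60; adjusted p = 4.15e-10), where 14.8% of all genes were called and Boc was the only other of the 9. That step fell short of the threshold without 36 h VCAM replicate 1 (0.55), without 60 h VCAM replicate 3 (0.54) and after quantile normalization (0.53). From 60 to 84 h its change was -0.40, and none of the 9 genes was called in that step, where 3.95% of all genes were. In YFP cells the 36 h arrays were 9.41, 9.42 and 9.33 and the 60 h arrays 9.54, 9.52 and 9.61, with 9.50, 9.54 and 9.62 in QSCs and 8.95, 8.93 and 8.91 at 84 h. The changes from QSCs were -0.17 at 36 h and 0.00 at 60 h (95% interval -0.11 to 0.11), and Ptch1 fell 1.54-fold at 84 h. Between 60 and 84 h it fell by 0.63 in YFP cells, where 6.86% of all genes were called and Hhip was the other of the 9. Old cells gave 9.40, 9.29 and 9.40 at 60 h and 9.67, 9.74 and 9.66 in QSCs, without overlap, and the change of -0.32 was not called.

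Hhip, the decoy that binds Hedgehog ligands, was dim in most groups, and its highest and lowest group means were both from YFP cells. YFP arrays read 7.4, 7.43 and 7.47 in QSCs, 6.36, 6.71 and 6.52 at 36 h, 6.82, 6.73 and 6.81 at 60 h, and 5.73, 5.67 and 5.65 at 84 h. All 4 sets were apart from each other, and the last lay below the 25th percentile of all gene values. Hhip fell 1.86-fold at 36 h, 1.56-fold at 60 h and 3.36-fold at 84 h (log2 change -1.75 ± 0.095; adjusted p = 5.48e-15), and the step from 60 to 84 h alone was -1.11 (adjusted p = 4.26e-10). In young VCAM cells the arrays were 6.54, 6.48 and 6.64 in QSCs, 5.64, 5.76 and 5.77 at 36 h, 6.32, 6.28 and 6.0 at 60 h, and 6.01, 6.03 and 5.85 at 84 h. Hhip fell by 0.83 at 36 h and by 0.59 at 84 h, and the 60 h change was -0.35. The 36 h arrays all lay below the 25th percentile of 5.96, and the 84 h mean, 5.96, lay at it. The call at 84 h was lost without QSC VCAM replicate 3 (-0.54), without 84 h VCAM replicate 3 (-0.53) and after quantile normalization (-0.51). Old VCAM cells had 6.85, 6.51 and 6.75 at 60 h, against 6.64, 7.0 and 6.84 in old QSCs, which overlap, and the change was -0.12 (95% interval -0.32 to 0.07).

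Smo, the transducer that Ptch1 restrains, was higher in each group of injured cells than in its QSCs, though mostly by less than 1.5-fold. The arrays of young VCAM cells were 9.44, 9.33 and 9.42 in QSCs, 9.81, 9.88 and 9.82 at 36 h, 9.78, 9.91 and 9.91 at 60 h, and 9.66, 9.67 and 9.66 at 84 h, so no later array overlapped with QSCs. The changes were 0.44, 0.47 and 0.27 and were not called. In YFP cells Smo rose 1.56-fold at 60 h (0.64; adjusted p = 6.8e-11), with changes of 0.36 at 36 h and 0.23 at 84 h that were not called. In old cells it rose 1.65-fold at 60 h, with 9.72, 9.85 and 9.78 against 9.09, 9.16 and 8.94 in old QSCs. Both calls were lost after quantile normalization, at 0.50 for YFP and 0.47 for old cells. Sufu, the cytoplasmic restraint on Gli proteins, moved least. Its group means spanned 0.467, 8 of 9 neighbouring pairs in rank overlapped, and its largest change from QSCs was -0.33 at 36 h in young VCAM cells (8.07, 8.17 and 8.20 at 36 h, against 8.49, 8.55 and 8.39 in QSCs).

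Boc, a co-receptor for Hedgehog ligands, had its main fall between 36 and 60 h. Young VCAM arrays were 9.16, 9.19 and 9.25 in QSCs, 8.84, 8.77 and 8.87 at 36 h, 7.48, 7.66 and 7.59 at 60 h, and 7.76, 7.60 and 7.78 at 84 h. The 36 h arrays sat between QSCs and the 2 later times without touching either. The change was -0.37 at 36 h, which was not called, and then -1.62 ± 0.064 at 60 h (adjusted p = 4.77e-18) and -1.49 at 84 h, which were. The step from 36 to 60 h was -1.25, or 2.38-fold (adjusted p = 5.4e-15). In YFP cells the arrays were 9.01, 9.18 and 9.26 in QSCs, 8.42, 8.60 and 8.55 at 36 h, 7.37, 7.42 and 7.45 at 60 h, and 7.55, 7.59 and 7.51 at 84 h. Boc was 1.54-, 3.34- and 3.03-fold lower than in QSCs at the 3 times. The 36 h call was lost without QSC YFP replicate 3 (-0.57) or without 36 h YFP replicate 1 (-0.58), and leaving out QSC YFP replicate 3 also removed Cdon, with 3 of the 9 genes still called. From 36 to 60 h Boc fell by 1.11, and it was the only one of the 9 called in that step, where 17.3% of all genes were. In the same step, of 13 fibroblast markers 9 fell in young VCAM and 11 in YFP cells. All 10 endothelial and all 9 pericyte and smooth muscle markers fell in both sorts, as did 6 and 5 of 7 tenocyte markers. No marker of these lists rose, while 8.49% and 8.58% of all genes fell. The part of such cells in the fall of Boc was not tested. Old cells had 8.13, 8.16 and 8.25 at 60 h, against 9.76, 9.77 and 9.66 in QSCs, a fall of 2.93-fold. Boc had the widest span of group means among the 9 genes, 2.32, with old QSCs at the top and 60 h YFP cells at the bottom.

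Cdon, the related co-receptor, fell by 36 h in VCAM cells. Its annotated probe set was dim in injured cells and variable, with a within-group SD of 0.191, at the 98.6th percentile of all genes. A second probe set outside the annotation used, which the study's own table names Cdon, was bright and tight, and was added after seeing the data. The annotated probe set read 7.64, 7.93 and 7.84 in young VCAM QSCs, 5.70, 6.12 and 5.93 at 36 h, 5.84, 6.07 and 6.13 at 60 h, and 5.87, 6.31 and 6.08 at 84 h. The second read 12.25, 12.17 and 12.27 in QSCs, 10.64, 10.64 and 10.70 at 36 h, 10.55, 10.69 and 10.71 at 60 h, and 10.70, 10.65 and 10.80 at 84 h. Both thus put QSCs well above 3 injured groups that overlapped among themselves. The log2 changes were -1.89, -1.79 and -1.72 for the annotated set (adjusted p = 7.69e-12 at 36 h) and -1.57, -1.58 and -1.51 for the second. In old cells the annotated set gave 5.93, 6.03 and 6.31 at 60 h, against 6.91, 6.68 and 6.71 in QSCs, and a change of -0.68, while the second gave -1.05. The old cells' call was lost after quantile normalization, at -0.55, for the annotated set.

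In YFP cells the 2 probe sets of Cdon differed in timing. The annotated one read 7.16, 7.0 and 7.28 in QSCs, 6.50, 6.51 and 6.51 at 36 h, 6.18, 5.52 and 6.19 at 60 h, and 6.37, 6.47 and 6.39 at 84 h, and was called at all 3 times (-0.64, -1.18 and -0.74). The second read 11.43, 11.48 and 11.57 in QSCs and 11.38, 11.44 and 11.46 at 36 h, which overlap, with a change of -0.06 (adjusted p = 0.321). It then read 10.69, 10.66 and 10.77 at 60 h and 10.67, 10.65 and 10.78 at 84 h, changes of -0.79 at both times. The 36 h call of the annotated set was lost without QSC YFP replicate 3 (-0.57). Between 36 and 60 h the annotated set changed by -0.54, which was not called, and the second by -0.72, which was; without 60 h YFP replicate 1 or replicate 3 the annotated set gave -0.65 or -0.66 and was called as well.

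The VCAM and YFP sorts were compared at each stage to ask how far 2 ways of isolating satellite cells give the same values. Cdon and Hhip were the genes called. In QSCs, where 3.55% of all genes were called, Cdon was 1.58-fold higher in VCAM than in YFP cells (log2 difference 0.66; adjusted p = 0.000694), or 0.73 by the second probe set. Hhip was 1.84-fold lower in VCAM QSCs, with 6.54, 6.48 and 6.64 against 7.4, 7.43 and 7.47 in YFP QSCs. At 36 h, where 5.27% of all genes were called, Cdon was 1.51-fold lower and Hhip 1.75-fold lower in VCAM cells. The Cdon difference, -0.59, was lost without 36 h VCAM replicate 1 (-0.48), and was -0.77 by the second probe set. At 60 h (1.31% of all genes called) and 84 h (1.66%) none of the 9 was called. Hhip at 60 h, -0.58, lay just short of the threshold and passed it without 60 h VCAM replicate 1 (-0.64), without 60 h VCAM replicate 2 (-0.63), without 60 h YFP replicate 2 (-0.61) and after quantile normalization (-0.60).

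The injury responses of the sorts were then set against each other in 1 model. At 36 h, where 9.09% of all genes were called, 3 of the 9 responded more negatively in VCAM than in YFP cells. The difference of the responses was -1.25 for Cdon (95% interval -1.67 to -0.83; adjusted p = 2.09e-05), or -1.5 by the second probe set, -0.75 for Gli2 and -0.67 for Ptch1. At 60 h (4.99% called) only Cdon was called, at -0.61 with an adjusted p of 0.028. That call was lost without any 1 of 6 of the 12 arrays concerned, namely QSC VCAM replicates 2 and 3, 60 h VCAM replicate 1, QSC YFP replicate 2 and 60 h YFP replicates 1 and 3, which gave -0.59 to -0.50. It was also lost after median centring (-0.52) and when only the groups compared entered the fit (adjusted p = 0.0695). The second probe set gave -0.79 there. At 84 h (6.56% called) the difference was 1.16 for Hhip, which fell further in YFP cells, and -0.98 for Cdon. Other cells' markers also differed between the sorts. At 36 h the mean of 10 endothelial markers was 8.61 to 8.68 in VCAM arrays and 9.88 to 9.89 in YFP arrays, with 10 of 10 called as lower in VCAM cells. The mean of 7 tenocyte markers was 11.09 to 11.10 in VCAM arrays and 9.44 to 9.45 in YFP arrays, with 6 called as higher in VCAM cells, and 7 of 11 satellite cell markers were called as lower in VCAM cells. In QSCs, 5 of 9 pericyte and smooth muscle markers were higher in VCAM cells (mean 10.48 to 10.58, against 9.49 to 9.53 in YFP cells). At 84 h, 8 of 11 macrophage markers were lower (mean 8.81 to 8.85 in VCAM arrays, against 9.56 to 9.60 in YFP arrays) and 5 of 7 tenocyte markers higher in VCAM cells. Of 13 fibroblast markers, 2 were higher and 0 lower in VCAM than in YFP QSCs. The counts were 5 and 2 at 36 h, 5 and 0 at 60 h, and 4 and 0 at 84 h. The part of these cells in the differences of Cdon, Gli2, Ptch1 and Hhip was not tested.

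Old and young VCAM cells were compared in QSCs and at 60 h to ask what age changes. In QSCs, where 7.74% of all genes were called, Cdon was 2.05-fold lower in old cells (6.91, 6.68 and 6.71 in old QSCs, against 7.64, 7.93 and 7.84 in young QSCs; log2 difference -1.03; adjusted p = 1.26e-06). The second probe set gave -0.77, with 11.45, 11.45 and 11.49 in old QSCs against 12.25, 12.17 and 12.27 in young QSCs. Boc went the opposite way, by 0.53 (9.76, 9.77 and 9.66 in old QSCs, against 9.16, 9.19 and 9.25 in young QSCs), which fell short of the fold threshold although no arrays overlapped. With 3 arrays a side, arrays can stand apart at small differences. Those of Sufu did so in QSCs at a difference of 0.11, which was not called (adjusted p = 0.244). Smo differed by -0.33, Gli3 by 0.33 and Gli1 by 0.27, none of them called. At 60 h, where 5.41% of all genes were called, Boc was 1.52-fold higher in old cells (8.13, 8.16 and 8.25 in old cells, against 7.48, 7.66 and 7.59 in young cells; 0.60; adjusted p = 3.08e-08). That call was lost without young 60 h VCAM replicate 1 (0.55), without old 60 h VCAM replicate 3 (0.57), after median centring (0.53) and after quantile normalization (0.49). Hhip at 60 h was 0.50 higher in old cells and was called, at 0.59, without old 60 h VCAM replicate 2. The difference of Cdon between old and young cells at 60 h was 0.08 (95% interval -0.22 to 0.37) by the annotated probe set and -0.24 by the second.

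The 60 h response was called as different with age for Cdon alone among the 9, by its annotated probe set, where 8.97% of all genes were called. The old minus young difference of the responses was 1.11 (95% interval 0.69 to 1.53; adjusted p = 9.74e-05), with changes of -0.68 in old cells and -1.79 in young cells. By the second probe set it was 0.52, with an adjusted p of 2.67e-06, and missed the fold threshold. The old and young means of the annotated set were 6.77 and 7.80 in QSCs. At 60 h they were 6.09 and 6.01, near the 25th percentile of 5.96, so its difference of responses was mostly the difference already seen in QSCs. Gli3 had a difference of -0.50 (adjusted p = 0.00817), which was called after median centring (-0.59) and quantile normalization (-0.64). For Gli2 the responses of old and young cells differed by 0.10 (95% interval -0.15 to 0.35) and for Boc by 0.07 (-0.12 to 0.26). At 60 h all 11 macrophage markers and 8 of 10 endothelial markers were higher in old cells, with means of 9.75 to 9.85 in old and 7.91 to 8.07 in young arrays for the first list and of 7.89 to 7.93 in old and 6.97 to 7.0 in young arrays for the second, and 6 of 7 tenocyte and 5 of 9 pericyte and smooth muscle markers were also higher. In QSCs, 3 of 11 satellite cell markers and 5 of 9 pericyte and smooth muscle markers were lower, and 5 of 7 tenocyte markers higher, in old cells. Of 13 fibroblast markers, 5 were higher and 0 lower in old cells at 60 h, and 4 were higher and 5 lower in old QSCs. The part of these cells in the differences between ages was not tested.

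**Figure D4:**
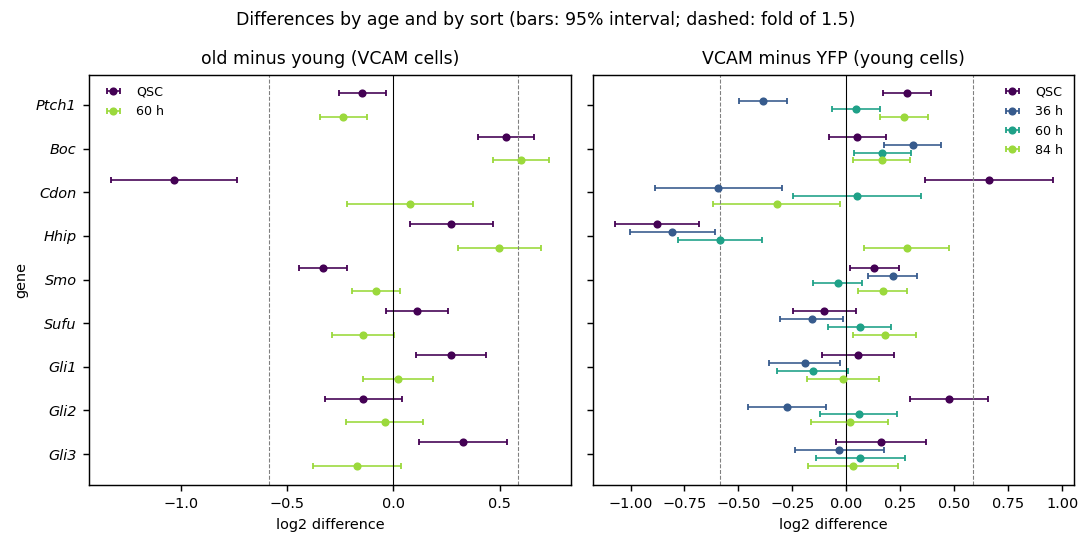
Log2 difference (x axis) of each of the 9 genes (y axis) between old and young VCAM cells (left) and between VCAM and YFP cells (right), at each stage; bars are 95% intervals and dashed lines mark a fold of 1.5. Cdon and Hhip show the differences furthest from 0 between the sorts, and Cdon in QSCs the one furthest from 0 between ages.

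The genes whose group means ran most closely with each of the 9 were found by Pearson's r over the 10 group means, among 6062 genes that spanned at least 1 on the log2 scale. These r values describe likeness over 10 points that share stages and arrays. Gli2 was most like Osgin1 (0.9938), Rai2 (0.9916) and Tnik (0.9912), and Boc most like Adam22 (0.9905), Slc2a13 (0.9904) and Lepr (0.9883). Gli3 was followed by Psmg1 (0.9894), Bola3 (0.9882) and 0610010K14Rik (0.9878), while Cdon was followed by Cd46 (0.9831), Mblac2 (0.9789) and Sesn1 (0.9779). For Gli1 the nearest were Whamm (0.979), Pogk (0.9785) and Fam78b (0.9775), and for Smo they were Cers2 (0.9774), Slc25a32 (0.9758) and Nomo1 (0.9734). The matches were looser for Ptch1, led by 2310067E19Rik (0.9308), Etv5 (0.9293) and Tpcn1 (0.8791), for Hhip, led by Fgf13 (0.9104), Chrm3 (0.8986) and Sesn2 (0.8985), and for Sufu, led by Map1b (0.8689), Ninl (0.7944) and Wfs1 (0.7899). Among the 9 themselves, r was 0.931 between Gli1 and Gli2, 0.902 between Gli2 and Cdon and -0.904 between Gli2 and Gli3.

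The wider pathway was read from lists of genes by role. Of 8 genes for ligands and their release, the ligands Shh, Ihh and Dhh were called in none of the 21 comparisons. Their group means lay between 6.42 and 6.65 for Shh, between 7.41 and 7.86 for Ihh and between 6.16 and 6.72 for Dhh. Disp1, which releases lipid-bearing ligand from the producing cell, fell in 6 of the 7 comparisons of injured cells with QSCs. Its mean ± SD was 10.49 ± 0.08 in young VCAM QSCs and 8.84 ± 0.11 at 36 h (n = 3 each; change -1.66), and its change at 60 h was -1.64 in old cells and -1.18 in young VCAM cells. Hhat, which attaches palmitate to the ligands, rose by 0.63 at 84 h in YFP cells.

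Of the other receptors, Gas1, a co-receptor alongside Boc and Cdon, fell in all 7 comparisons, by 1.13 in old cells at 60 h and by 1.27 to 1.82 in the others. It was also lower in old than in young QSCs, at 10.45 ± 0.03 in old and 11.31 ± 0.03 in young QSCs (SD, n = 3 each; difference -0.86). Gpc3, a glypican that competes with Ptch1 for ligand, fell in 5 of 7 and had its largest change, -2.0, in old cells. In YFP cells it then rose by 1.43 between 60 and 84 h. Lrp2 was dim throughout, with group means from 5.80 to 6.51.

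Among the 24 measured transduction genes, calls ran both ways, with 0 risen and 3 fallen at 36 h, 3 and 4 at 60 h and 2 and 4 at 84 h in young VCAM cells. Of all genes, 13.2% rose and 9.72% fell at 36 h, 16.6% and 12.6% at 60 h and 16.4% and 11.2% at 84 h there. The median change of the list at those times was -0.23, -0.06 and -0.03, against -0.01, -0.04 and -0.03 over all genes. Numb, an adaptor that directs Gli1 and Notch for degradation, and Csnk1d, a casein kinase, fell in all 7 comparisons, by 0.63 to 1.5 and by 0.70 to 1.23. Arrb1, a beta-arrestin, fell in 6 of 7, by up to 1.94 at 60 h in young VCAM cells, and was higher by 1.03 in old than in young cells at 60 h. Dyrk2 and Arrb2 rose in 5 of 7, as did Efcab7, which tethers the ciliary Evc complex and whose largest change was 1.95 at 60 h in YFP cells.

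The 32 measured genes of the primary cilium were counted in the same way, against the same shares of all genes in young VCAM cells. There, 0 rose and 6 fell at 36 h, 5 rose and 5 fell at 60 h, and 7 rose and 4 fell at 84 h. In YFP cells the counts were 1 and 3, 8 and 4, and 9 and 1, against shares of all genes of 10.1% and 6.14%, 17.2% and 12.8%, and 17% and 11.2%. In old VCAM cells at 60 h they were 9 and 4, against 17.8% and 11.7%. No test set the list against other genes. The fallen genes were led by Cc2d2a, Bbs2 and Ttbk2, and Ttbk2, a kinase that starts cilium assembly, fell in all 7 comparisons (-0.86 to -0.69). The risen ones were led by the intraflagellar transport genes Ift74 and Ift52, the kinesin subunit Kif3b, the transition zone gene Rpgrip1l and Wdr19, with Ift74 up by 1.77 and Wdr19 by 1.52 at 84 h in YFP cells. Wdr19, Ift80 and Kif3a were lower in old than in young QSCs, with differences of -0.89, -0.76 and -0.75, the only 3 of 32 called there, where 4.7% of all genes fell.

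**Figure D5:**
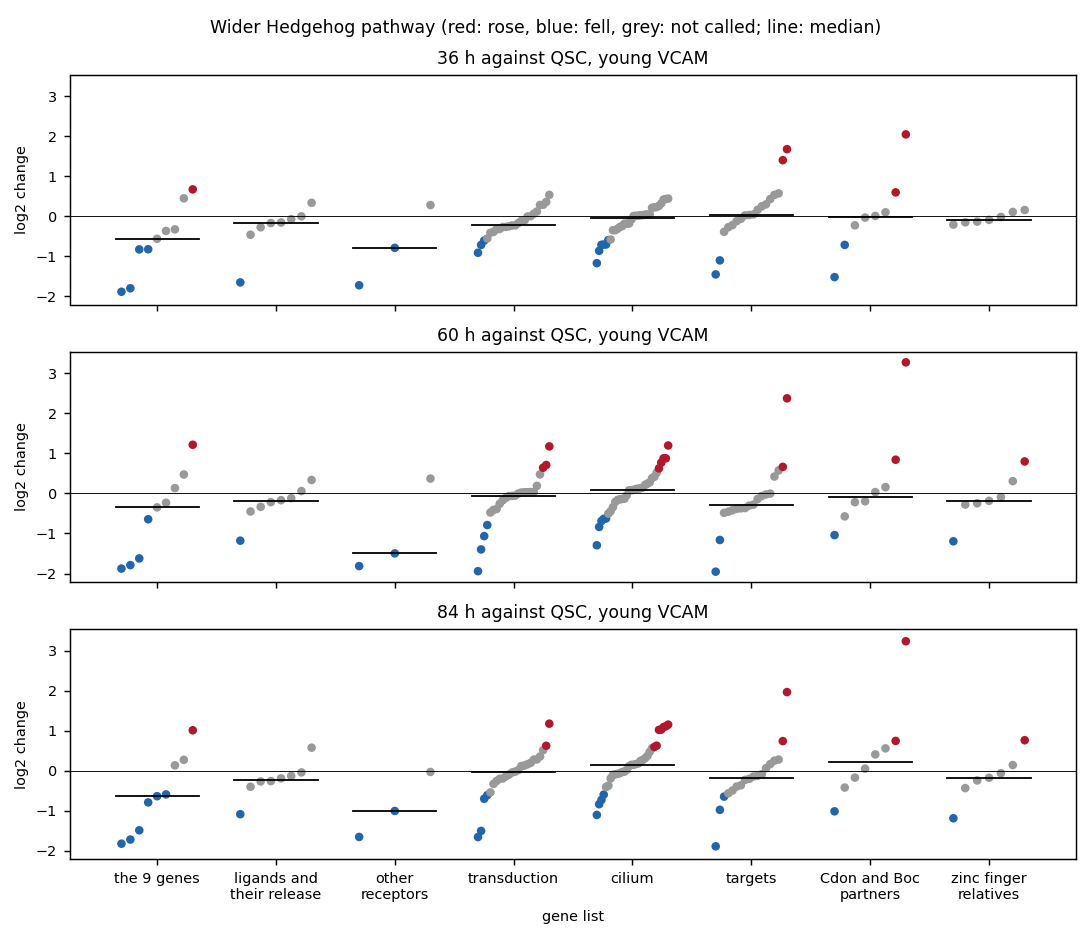
Log2 change from QSCs (y axis) at 36, 60 and 84 h in young VCAM cells for the 9 genes and 7 lists of pathway genes (x axis); each point is a gene, red where it rose, blue where it fell, grey where it was not called, and the line is the list's median. The cilium list has 0 red points at 36 h and 7 of 32 at 84 h, where 13.2% and 16.4% of all genes rose.

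Of 18 measured genes known as Hedgehog targets in some tissue, Foxm1 and Bcl2 were called in all 7 comparisons of injured cells with QSCs. Foxm1, a mitotic transcription factor, rose in all 7 comparisons, by 1.4 to 2.38. Bcl2, an inhibitor of cell death, fell in all 7, by 0.91 to 1.95, and Mycn fell in 4. Ccnd1, the G1 cyclin D1, was high in young VCAM QSCs, at 11.61, against 10.19 in YFP QSCs. It was lower in old QSCs, with a difference of -1.5 (10.11 in old and 11.61 in young QSCs), and it rose by 1.97 in old cells at 60 h and by 2.06 in YFP cells at 60 h, while its 60 h value in young VCAM cells was 12.18 and was not called as changed. Ccnd2 rose by 1.67 at 36 h in young VCAM cells and fell by 2.04 between 36 and 60 h. Of the 18 genes, 2 rose and 2 fell at 60 h in young VCAM cells, with a list median of -0.29, while 16.6% of all genes rose and 12.6% fell, with a median of -0.04. In YFP cells 6 rose and 1 fell at 36 h, 4 and 2 at 60 h, and 2 and 4 at 84 h. The list medians there were 0.17, -0.02 and -0.09. Of all genes, 10.1% rose and 6.14% fell at 36 h in YFP cells, 17.2% and 12.8% at 60 h, and 17% and 11.2% at 84 h.

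Of 8 partners of Cdon and Boc, 2 rose and 1 fell at 60 h in young VCAM cells, where 16.6% of all genes rose and 12.6% fell. Cdh2, the N-cadherin that both bind, rose in all 7 comparisons, by 1.98 to 3.3, and Bnip2, a scaffold downstream of Cdon, rose in all 7 by 0.59 to 0.91. Spag9, the JNK scaffold JLP that Cdon binds, fell in 6 of 7. Cdh15, M-cadherin, fell by 1.52 at 36 h in young VCAM cells and rose by 0.96 at 84 h in YFP cells. Among relatives of the Gli factors with the same kind of zinc fingers, Glis3 fell at 60 and 84 h in young VCAM (-1.20 and -1.19) and YFP cells (-2.32 and -2.45) and at 60 h in old cells (-1.62), while Zic1 rose in the same 5 comparisons by 0.76 to 0.99. Glis3 was lower in VCAM than in YFP QSCs, with a difference of -1.07, and higher in old than in young QSCs, by 1.26.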

How the data were processed

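Expression was measured on 30 Mouse Gene 1.0 ST arrays from Affymetrix, in 10 groups of 3. The authors summarised the arrays with RMA in Affymetrix Expression Console (versions not given in the sources used here), and the deposited values are log2 intensities. RMA corrects background and quantile normalizes probe values, so a uniform shift of all genes between groups cannot be seen. The deposited values still differed in distribution between arrays. Their array medians ran from 7.03 to 7.16, and a further quantile normalization changed some calls, as given below. Of 35556 probe sets, 21789 named 1 gene, 1621 several and 12146 none in the platform annotation. For each of 19938 genes the single-gene probe set with the highest mean over all arrays was kept. A linear model of the 10 group means, with 20 residual degrees of freedom, was run in limma 3.58.1 (R 4.3.3) with empirical Bayes moderation and Benjamini-Hochberg adjustment over all genes in each of 21 comparisons. A gene was called at an adjusted p under 0.05 and a fold of at least 1.5. The test behind the study's own array comparisons is not given in the sources used here. Array precision is limited by the 3 arrays per group, whose within-group correlations were 0.996 to 0.9983. Names came from the 9 genes in full, the largest called changes of each list, the ligands, and for likeness the 3 highest correlations; some further list genes were named after their values were seen. The members and lists were chosen with earlier results of these data known. The fit was tested on simulated data. Alternatives were other scalings, filters, probe sets, moderation, a replicate block and leaving out each array. No strong pairing of the samples by replicate number was seen, and weaker pairing was not tested (27 of 135 same-numbered pairs had a correlation of deviations over 0.1, with a mean of 0.035, against -0.0175 for other numbers). The second Cdon probe set was chosen after seeing the data. Promoters were read from RefSeq tables for GRCm38.p6.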

Additional observations from a re-analysis of the deposited data

Results flagged for a closer look

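Several injury responses differed between groups by a test of the difference itself. The 60 h response of Cdon was less negative in old than in young VCAM cells, by 1.11 on the log2 scale, or by 0.52 and not called with the second Cdon probe set. By the annotated set the old and young means were 6.77 and 7.80 in QSCs and 6.09 and 6.01 at 60 h. At 36 h the responses in VCAM cells were more negative than in YFP cells by differences of -0.75 for Gli2, -0.67 for Ptch1 and -1.25 for Cdon. At 60 h the difference for Cdon was -0.61, and it was lost without any 1 of 6 arrays (QSC VCAM replicates 2 and 3, 60 h VCAM replicate 1, QSC YFP replicate 2 and 60 h YFP replicates 1 and 3), with values of -0.59 to -0.50, while the second probe set gave -0.79 (limma, adjusted p = 8.16e-09). At 84 h the differences were 1.16 for Hhip and -0.98 for Cdon. Markers of other cell types also differed between these groups, and their part was not tested.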

How the results depend on the processing

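Under the alternatives, no called change of the 9 genes reversed, and changes of sign were seen only among uncalled values (12 after median centring, 10 after quantile normalization, 35 when 1 array was left out and 5 with the second Cdon probe set). Median centring moved the median of all genes by 0.111 between 36 and 60 h in VCAM cells. Without the fold threshold, the genes called against QSCs numbered 9 at 36 h and 8 at 60 h in young VCAM cells and 9 at 36 h in YFP cells, where 11159, 11910 and 9765 of all 19938 genes were called in the same way. The steps from 36 to 60 h and from 60 to 84 h then held 5 and 2 in VCAM and 8 and 5 in YFP cells. Of all genes, 9413 and 5588 passed in these VCAM steps and 10317 and 7794 in the YFP steps. VCAM against YFP cells gave 4 in QSCs, 6 at 36 h, 1 at 60 h and 3 at 84 h. There 5986, 7426, 2516 and 4119 of all 19938 genes passed. Old against young cells gave 7 in QSCs and 3 at 60 h, where 7571 and 5568 of all genes passed. The differences of response gave 3 for age, and 3 at 60 h and 4 at 84 h for sort. For these, 6249, 4869 and 5470 of all genes passed. Quantile normalization gave 3 for old cells at 60 h against QSCs, 1 for the 36 to 60 h step in VCAM cells, 1 for VCAM against YFP at 60 h, 0 for old against young at 60 h and 2 for the age difference of response. Median centring gave 4, for that step, 0 for old against young at 60 h, 2 for the age difference of response and 0 for the sort difference of response at 60 h, which was also 0 with only the groups compared in the fit. The second Cdon probe set gave 2 for the 36 to 60 h step in YFP cells and 0 for the age difference of response. Smaller moves were 6 at 36 h in young VCAM cells under both scalings, 4 at 60 h there after centring, 6 at 84 h there and 5 at 60 h in YFP cells after quantile normalization, and 4 at 36 h in YFP cells with the second Cdon probe set. With 1 array left out, counts ran from 3 to 5 at 36 h in YFP cells, 1 to 3 and 1 to 2 for the 36 to 60 h steps in VCAM and YFP cells, 1 to 2 at 36 h and 0 to 1 at 60 h for VCAM against YFP, 0 to 2 for old against young at 60 h and 0 to 1 for the sort difference of response at 60 h. The cause of these changes was not tested. The share of all genes called was not counted under the other scalings, the second Cdon probe set or with arrays left out, so these counts cannot be set against it. With the replicate number as a block the counts were as before, 5, 5 and 7 at 36, 60 and 84 h in young VCAM cells. Trended robust moderation changed no count. Neither did a filter on dim genes or the mean of all probe sets. These 2 settings left the values of the 9 genes as they were, since each has 1 probe set and passes the filter, so they could hardly change a count. Hhip and the annotated Cdon probe set lay below the median gene value of 7.3 in every group of injured cells. What this does to the sizes of their changes was not tested.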
